A study of Mus musculus with 4 samples.

Results

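The miR-30 guide arms are the 5 mature mouse miRNAs mmu-miR-30a-5p, mmu-miR-30b-5p, mmu-miR-30c-5p, mmu-miR-30d-5p and mmu-miR-30e-5p, written below without the species prefix and chosen by name from the 1881 on the array. They were measured in RNA of the exosome fraction, the small vesicles pelleted by ultracentrifugation from media of 3T3-L1 cells. 3T3-L1 is an established mouse line of fibroblast-like preadipocytes that turns into fat cells after hormonal induction. The D0 medium came from cells in growth medium with low glucose. The media of D4, D12 and D16 came from cells that had been moved to high-glucose medium with insulin, 3-isobutyl-1-methylxanthine and dexamethasone for the first 2 days and to insulin alone from then on. The serum in all media had been depleted of exosomes. Each day was measured on 1 array with RNA pooled from independent experiments, so that there were no replicates and no test between days was possible.

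A miRNA guides a silencing complex to messenger RNAs that pair with its seed, bases 2 to 8 from the 5′ end, and miRNAs of one seed family therefore share many predicted targets. The guide arm is the strand of a hairpin that is mostly kept, and the passenger arm is the strand that is mostly discarded. The miR-30 family is found in many tissues, and in fat cell precursors it has been described as favouring adipogenesis, with the osteoblast factor RUNX2 among the targets of miR-30a and miR-30d. Sequences in RefSeq (GRCm38.p6) were matched by name for 3 of the 5 members. They are shown with the seed in capitals because these 3 arms agree up to base 12 and differ further on, where hybridisation probes have to tell them apart.
miR-30a-5p: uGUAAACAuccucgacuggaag
miR-30e-5p: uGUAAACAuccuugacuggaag
miR-30c-5p: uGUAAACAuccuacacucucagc
Counted from the 5′ end, miR-30a-5p and miR-30e-5p differ at 1 of 22 positions, C13U. The sequences of miR-30a-5p and miR-30c-5p differ at 5 of 22 positions, the first of them at position 13. The mature miR-30a-5p lies at chr1:23272274-23272295 on the plus strand, and miR-30e-5p at chr4:120772660-120772681 on the minus strand. The sequence of miR-30c-5p is encoded by Mir30c-2 at chr1:23291714-23291736 on the plus strand and again by Mir30c-1 at chr4:120769584-120769606 on the minus strand. Mir30a and Mir30c-2 are neighbours, as are Mir30c-1 and Mir30e, with 0 annotated genes between them in either pair. Mir30c-1 and Mir30e lie within the span of Nfyc, which encodes a subunit of the transcription factor NF-Y. In the RefSeq list of 1679 mature miRNAs, which gave the 3 sequences above, 4 entries carried this seed, namely these 3 and miR-384-5p. The latter and miR-30f, which has the same bases shifted by 1 position at its 5′ end, were not detected on any of the 4 arrays.

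The arrays of D0, D4, D12 and D16 detected 329, 426, 406 and 380 miRNAs, and 283 were detected on all 4. A miRNA counted as detected when at least 1 of its probes had a signal above 3 times the error that the scanner software gives for it. The deposited signals were not scaled between arrays. Over the 283 miRNAs the median ratio of signals to D0 was 2.59, 1.99 and 1.32 for D4, D12 and D16, so that the typical miRNA was brighter on the later arrays than on the D0 array. The D0 array also had a higher variation between the spots of a probe, with a median coefficient of variation of 21.1% against 7.19 to 8.07% on the later arrays. Of the 8 miRNAs listed as markers of mesenchymal and fat cells, 4 were detected at D0 and 7 at D12 and D16, and miR-145a-5p was detected on none of the arrays.

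Among the miR-30 guide arms, 1 of 5 was detected at D0 and all 5 were detected at D4, D12 and D16. The member with signal at D0 was miR-30d-5p. Its total signal, in arbitrary units with the software's error within the array, was 3.08 ± 0.884 on D0, then 36.7 ± 3.10 (D4), 26.2 ± 2.43 (D12) and 18.3 ± 1.80 (D16). It was lowest at D0 and highest at D4. The signal of miR-30a-5p, not detected at D0, was 21.3 ± 1.98 on D4, 12.2 ± 1.41 on D12 and 10.0 ± 1.14 on D16. Both miR-30a-5p and miR-30d-5p thus had their highest signal at D4.

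The other 3 members had no such maximum at D4. The signal of miR-30b-5p was 7.73 ± 1.42, 7.78 ± 1.35 and 5.56 ± 1.04 on the 3 later days. That of miR-30c-5p was 6.10 ± 1.34, 7.61 ± 1.34 and 5.94 ± 1.06 in the same order. That of miR-30e-5p was 5.53 ± 1.31, 7.64 ± 1.34 and 5.26 ± 1.02. None of these 3 was detected at D0, and all had their highest deposited signal at D12. After scaling by the 75th percentile of each array their ratios of D16 to D12 were 1.04, 1.13 and 1.00, so that the D12 maximum depended on the scaling. For each of these 3 members the deposited signals of D4, D12 and D16 differed by less than 2 combined errors.

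**Figure D1:**
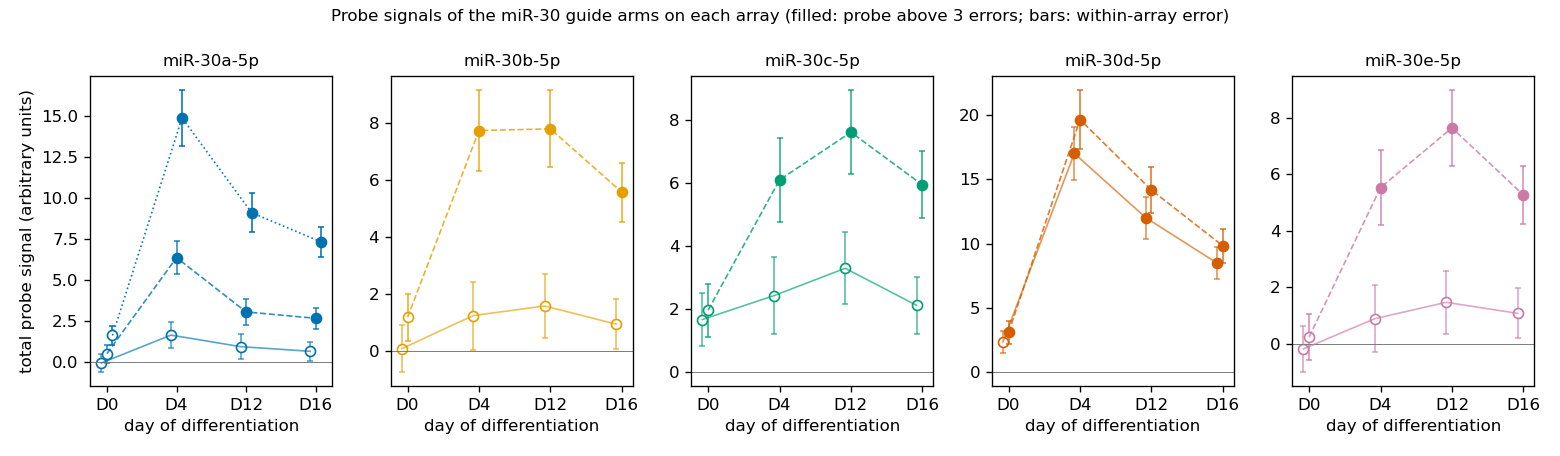
Total probe signal in arbitrary units (y axis, a separate scale for each miRNA) against the day (x axis) for the 11 probes of the 5 miR-30 guide arms. Each line is 1 probe, bars are the software's error within the array, and filled points are probes above 3 errors; at D0 only 1 probe, of miR-30d-5p, is filled.

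Each member was read by 30 spots, shared by 2 probes, or by 3 for miR-30a-5p. The gene signal on the later days was the sum of 2 of 3 probes for miR-30a-5p, of both probes for miR-30d-5p and of 1 of 2 probes for miR-30b-5p, miR-30c-5p and miR-30e-5p. At D0 the second probe of miR-30d-5p had a signal of 2.34, which is 2.73 times its error and therefore just under the detection limit. A probe of miR-30a-5p at 1.64, or 2.86 times its error, also stood just under the limit at D0. With all probes summed, whether detected or not, the D0 signal was 5.42 ± 1.23 for miR-30d-5p, 3.63 ± 1.19 for miR-30c-5p, 2.13 ± 0.964 for miR-30a-5p, 1.25 ± 1.16 for miR-30b-5p and 0.0406 ± 1.16 for miR-30e-5p.

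At the level of single spots and before scaling, the D0 array was separated from the D12 array in the brightest probe of every member. The 15 spots of the brightest probe of miR-30e-5p had a background-subtracted signal with a median of 1.23 and a highest value of 6.44 at D0, against a lowest of 21.5, a median of 28.7 and a highest of 34.8 at D12. For miR-30b-5p the highest of 15 spots at D0 was 10.6 and the lowest at D12 was 23.2. For miR-30c-5p the highest at D0 was 16.1 and the lowest at D12 was 22.8, while at D4 the lowest spot was 14.2, so that the D0 and D4 spots of this member overlapped. In miR-30a-5p the 10 spots reached 19.8 at D0 and started at 40.9 at D12, and in miR-30d-5p the 15 spots reached 27.4 at D0 and started at 43.1 at D12. In the dimmest probe of miR-30a-5p, miR-30b-5p, miR-30c-5p and miR-30e-5p the D0 and D12 spots overlapped. For miR-30c-5p that probe reached 12.8 at D0 and started at 5.41 at D12. In the dimmer probe of miR-30d-5p they did not overlap, with 19.2 at D0 against 37.3 at D12. The spot signals were not scaled between arrays, and the median ratio of D12 to D0 was 1.99. How many of all miRNAs were separated in this way was not counted. After division by the 75th percentile of the 283 miRNAs, a factor of 3.29 at D12, the D0 and D12 spots would overlap in every member but miR-30e-5p. Spots of 1 array share the same RNA and hybridisation and are no replicates of a day.

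**Figure D2:**
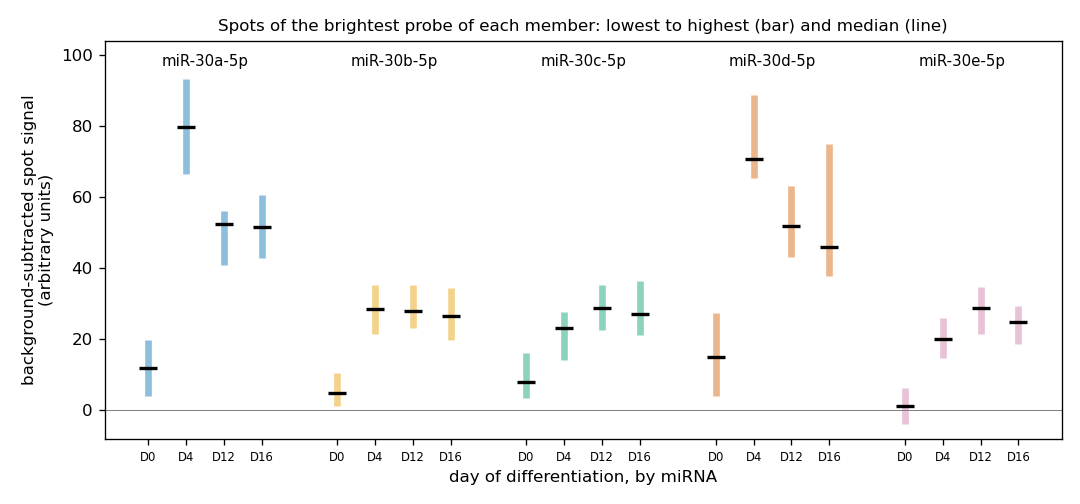
Background-subtracted spot signal in arbitrary units (y axis) of the brightest probe of each miR-30 guide arm on each day (x axis), with a bar from the lowest to the highest spot and a line at the median. The D0 bar lies below the D12 bar in all 5 members, and D4 lies above D12 without overlap in miR-30a-5p and miR-30d-5p. Signals are not scaled between arrays.

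Against D0, the signal of miR-30d-5p was 11.9-fold (± 3.56) on D4, 8.50-fold (± 2.56) on D12 and 5.94-fold (± 1.80) on D16, with errors propagated from those within the arrays. Part of this size came from the number of probes summed, 1 at D0 and 2 on the later days. With the same single probe on all days the ratios were 6.38, 4.60 and 3.19 for the 3 later days, and with both probes on all days they were 6.77 (± 1.64), 4.83 (± 1.19) and 3.38 (± 0.836). Divided by the median ratio of the 283 miRNAs, the ratio of miR-30d-5p was 4.61 on D4, 4.26 on D12 and 4.49 on D16, and 20 of the 283 had a higher ratio at D12. Counted over the probes detected on all 4 arrays, 35 of 283 had a higher ratio at D12, and the ratio of miR-30d-5p over the median was 2.42.

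For the members not detected at D0 only a nominal lower bound of the ratio can be given, the later signal over the D0 detection limit of the same probes. It makes no allowance for the error of the later signal, 17.3 to 23.7% in miR-30b-5p, miR-30c-5p and miR-30e-5p. A true D0 signal can also exceed the detection limit. For miR-30a-5p the bound was 6.31, 3.61 and 2.97 on D4, D12 and D16. For miR-30b-5p, miR-30c-5p and miR-30e-5p the bounds were 3.11, 2.41 and 2.25 at D4 and 3.13, 3.00 and 3.11 at D12. At D16 their bounds were 2.24, 2.35 and 2.14. A bound holds for the probes summed on the later day, 1 of 2 in these 3 members. With the dimmer probe included, the ratio of miR-30c-5p was 2.35 (± 0.916) at D4 and 2.22 (± 0.823) at D16, slightly below its bounds. All 5 members were thus above 2-fold at D12, by ratio or bound, without scaling and with no filter on brightness, where 50.7% of the 406 miRNAs detected at D12 were. The corresponding share of all miRNAs was 60.6% at D4 and 36.3% at D16, with all 5 members above 2 on both days.

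These counts depended on the scaling between arrays. After division of each array by the 75th percentile of the 283 miRNAs, which lowers the D12 signals 3.29-fold relative to D0, 1 of 5 members was above 2 at D12, against 10.1% of all miRNAs. That member was miR-30d-5p, at 2.58, while the bound of miR-30a-5p lay just above 1 and those of the remaining 3 members just below 1, so that no fold is given for them. With the 90th percentile 1 member remained above 2, against a background of 14.5%, and with quantile normalization again 1, against 13.1%. Scaling by 4 spike-in RNAs gave 2 members, miR-30a-5p with a bound of 2.10 and miR-30d-5p at 4.94, against 23.9% of all miRNAs. These scaled ratios of miR-30d-5p again set 2 probes against 1 at D0. Over its probe detected on all 4 arrays the ratio at D12 was 1.40 with the 75th percentile, 1.98 with the 90th and 2.67 with spike-ins, and over both probes it was 1.47, 2.08 and 2.81. These values were above 1 on each of these scales, but not above 2 on all of them. No error was computed for the scaled values. Before scaling, the ratio over both probes was 4.83 (± 1.19), so 1.40 and 1.47 were not clearly above 1. Without the scanner software's spot size, with all probes summed and with medians over spots, 5 of 5 members were above 2, against 34.5%, 53.7% and 50.5% of all miRNAs. In the count with all probes, the D0 sum of miR-30e-5p was replaced by the lowest detected D0 signal, 1.22. The ratio of miR-30b-5p in that count, 7.50, had an error of 7.14. With normexp background correction, which adds an offset to every spot and so pulls ratios of dim signals towards 1, 0 of 5 were, against 11.6%, and the ratio of miR-30d-5p was 1.43.

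**Figure D3:**
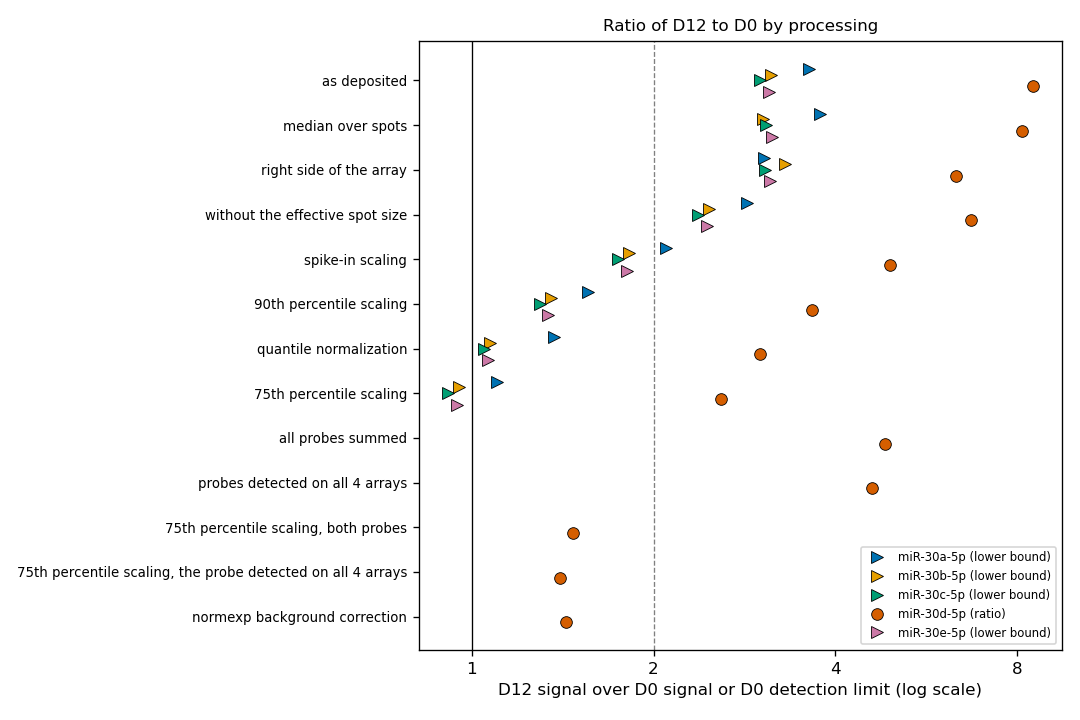
Ratio of D12 to D0 (x axis, log scale) for the miR-30 guide arms under different ways of processing the same arrays (y axis); the circle is the measured ratio of miR-30d-5p and triangles, in the upper rows, are lower bounds of the members not detected at D0. The dashed line is at 2 and the solid line at 1; miR-30d-5p ranges from 8.50 as deposited to 1.40 over the probe detected on all 4 arrays after scaling by the 75th percentile, with 1.43 after normexp, and the bounds of 3 members end left of 1 after scaling by the 75th percentile.

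The missing D0 signals were set beside those of all miRNAs. Of the 350 miRNAs detected on all 3 later arrays, 19.1% were not detected at D0, and 4 of the 5 members were among them. Among the 76 miRNAs whose D12 signal lay in the range of these 4 members, 35.5% were not detected at D0. These 4 members are counted in both shares. Taking all probes and dividing by the median ratio of all miRNAs at D12, the value was 3.25 for miR-30a-5p, 3.95 for miR-30b-5p, 2.54 for miR-30d-5p and 1.58 for miR-30c-5p. At D4 the values were 4.38, 2.92, 2.75 and 0.955 in the same order, so that miR-30c-5p was at the typical ratio there. The bounds over the median at D4 were 0.931 for miR-30c-5p and 0.869 for miR-30e-5p. The error of the all-probe ratio of miR-30b-5p, 7.14 on a ratio of 7.50, was nearly as large as the ratio. For miR-30e-5p no such ratio is given because its D0 sum lay well within its error of 0.

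The D0 array was uneven across its surface. Probes detected at D0 were brighter on the right side than on the left side, with a median ratio of mean spot signals of 1.46, against 0.989, 0.994 and 1.01 on the arrays of D4, D12 and D16. Of the 11 probes of the miR-30 guide arms 9 were brighter on the right side at D0, where 10 of the 11 were under the detection limit, against 7, 7 and 6 on D4, D12 and D16. The probes of miR-30d-5p had means of 13.6 and 19.6 on the right and 5.98 and 8.75 on the left, ratios of 2.27 and 2.24. The probe of miR-30a-5p that stood just under the limit had a ratio of 2.17. From right-side spots alone, miR-30d-5p was 6.35-fold above D0 at D12 and the bounds of the other 4 members lay between 3.04 and 3.30, with 42.9% of all miRNAs above 2.

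**Figure D4:**
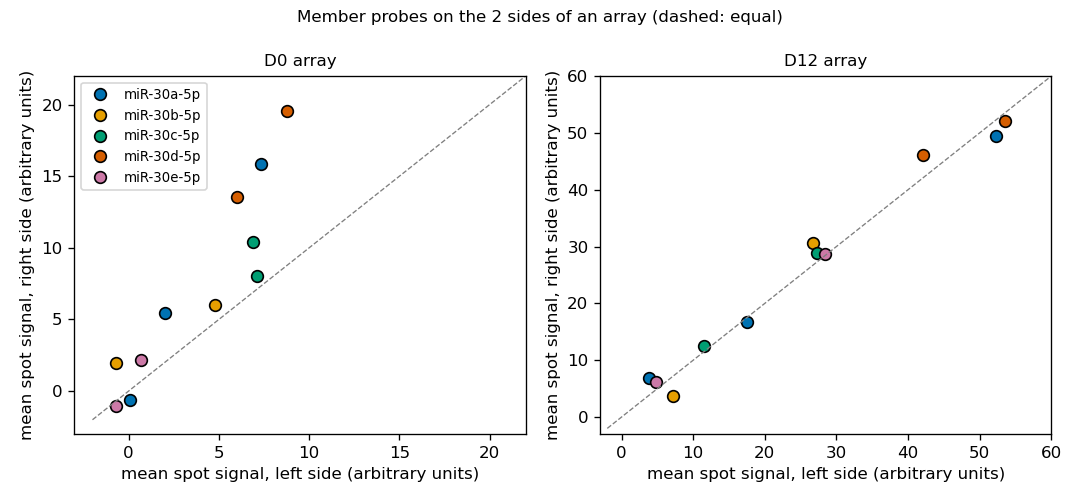
Mean spot signal in arbitrary units on the left side (x axis) and the right side (y axis) of the D0 array and the D12 array for the 11 probes of the miR-30 guide arms, each point 1 probe and the dashed line equality. At D0 9 of 11 probes lie above the line, and at D12 the points lie along it.

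The members differed in the comparison of D12 with D4, which does not use the D0 array. The ratio of D12 to D4 was 0.573 (± 0.0852) for miR-30a-5p and 0.714 (± 0.0895) for miR-30d-5p. It was 1.01 (± 0.254) for miR-30b-5p, 1.25 (± 0.351) for miR-30c-5p and 1.38 (± 0.408) for miR-30e-5p. The median over the 350 miRNAs was 0.862, with 70.6% of miRNAs detected on both arrays below 1 and 29.4% above it. Thus 2 members stood below the median and 3 above it, and 37 of the 350 had a higher ratio than miR-30e-5p while 286 had a higher ratio than miR-30a-5p. Before scaling, no D12 spot in the brightest probes of miR-30a-5p and miR-30d-5p reached the lowest D4 spot, 66.5 and 65.4 in signal. The D4 and D12 spots of the other 3 members overlapped. After division by the 75th percentile factors, 4.26 at D4 and 3.29 at D12, those of miR-30a-5p and miR-30d-5p would overlap as well. How many of all miRNAs had separate D4 and D12 spots was not counted.

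Neighbours in this order differed by at most 1.14 times their combined error. The widest gap, between miR-30a-5p and miR-30e-5p, was 0.809 with a combined error of 0.417, or 1.94 errors. These are the arms that differ by C13U. How far a probe for the one also binds the other was not tested. The 2 members below the median kept a ratio below 1, and miR-30c-5p and miR-30e-5p one above 1, under every scaling named above and under the background, spot and side alternatives that gave them a value. The ratio of miR-30b-5p fell on either side of 1, from 0.956 with medians over spots to 1.52 with quantile normalization.

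**Figure D5:**
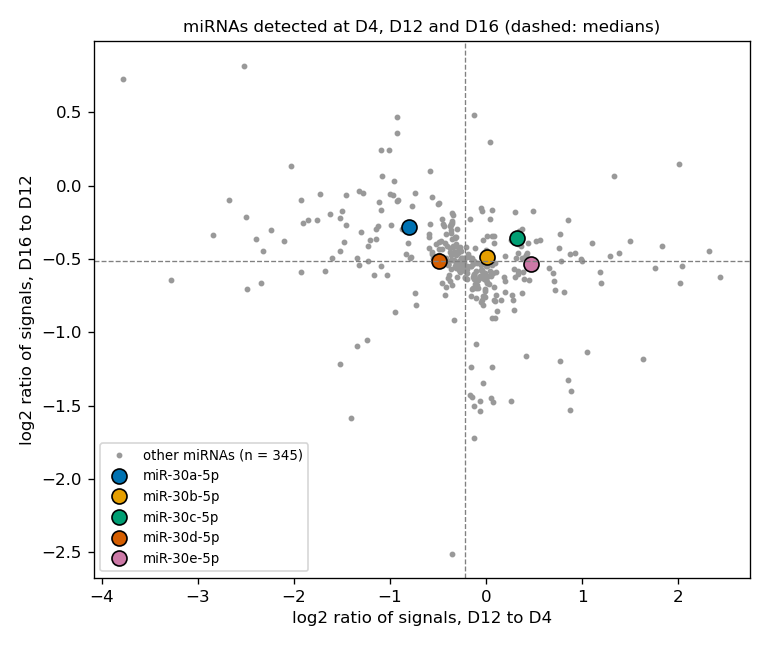
Log2 ratio of signals of D12 to D4 (x axis) and of D16 to D12 (y axis) for the 350 miRNAs detected at D4, D12 and D16, with the 5 miR-30 guide arms in colour and dashed lines at the medians. The members spread along the x axis from -0.80 (miR-30a-5p) to 0.47 (miR-30e-5p) and stay within -0.54 to -0.28 on the y axis.

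From D12 to D16 all 5 members had lower deposited signals, as had 95.7% of all miRNAs detected on both arrays. The ratio of D16 to D12 was 0.822 (± 0.134) for miR-30a-5p, 0.781 (± 0.196) for miR-30c-5p, 0.715 (± 0.182) for miR-30b-5p, 0.699 (± 0.0944) for miR-30d-5p and 0.689 (± 0.180) for miR-30e-5p, and the median over all miRNAs was 0.701. The members lay around that median. Without the effective spot size, a factor by which the software multiplies a probe's signal and which was 0.760 at D12 and 0.6 at D16, the ratios were 0.872 to 1.04 with a median of 0.887. After scaling by the 75th percentile the ratios were 1.00 to 1.19, so that the direction of this step flips with the scaling.

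Profiles were compared by the root mean square difference of log2 ratios. Over D4, D12 and D16 the closest pair of members was miR-30c-5p with miR-30e-5p, at 0.106, followed by miR-30a-5p with miR-30d-5p, at 0.232. The farthest pair was miR-30a-5p with miR-30e-5p, at 1.15. Over all 4 arrays a profile could be given for miR-30d-5p alone. Of 283 miRNAs, those most like it were miR-199a-3p at 0.215, miR-669b-3p at 0.239, miR-16-5p at 0.245, miR-669l-3p at 0.342 and miR-5624-5p at 0.354. None of these 5 was among the 5 nearest when all probes, or only probes detected on all 4 arrays, were summed, where members of the miR-467 and let-7 families took part of their place.

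The passenger arms were mostly not detected. For miR-30a-3p, miR-30b-3p, miR-30c-2-3p, miR-30d-3p and miR-30e-3p no array gave a detected signal. The arm miR-30c-1-3p, from one of the hairpins that yield miR-30c-5p, was detected through 1 of its 4 probes at D12, with a signal of 1.88 ± 0.547, and at D16, with 2.41 ± 0.475. A missing signal here says only that none of the probes exceeded 3 errors.

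Other miRNAs linked with fat cell differentiation gave the setting of these values. Of 23 miRNAs described elsewhere as favouring or rising in adipogenesis, 12 were detected at D0 and 20 at D12. Without scaling, 18 of these 20 were above 2 at D12 by ratio or bound, with a median of 9.50, where the background share was 50.7%. Their median ratio of D12 to D4 was 1.21, with 14 higher and 4 lower, where 29.4% of all miRNAs detected on both arrays were higher. The ratios ran from 0.263 for miR-210-3p, a miRNA induced by low oxygen, to 2.29 for miR-99a-5p. Of 12 miRNAs on the array described as opposing adipogenesis, 3 were detected at D0 and 5 at D12, of which 3 were above 2. The ratio of D12 to D4 could be given for 5 of them, with a median of 0.784, from 0.238 for miR-31-5p to 1.69 for miR-130a-3p. Both lists were chosen with earlier results of these data known, and the first includes miRNAs that the study itself calls pro-adipogenic. The counts were made without scaling and are no test of enrichment.

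Values of other seed families were set beside those of miR-30, without a test. Of the 9 let-7 guide arms, a family known for restraining growth genes, 8 were detected at D0 and all later. Without scaling, 8 of 9 were above 2 at D12 by ratio or bound, as were 50.7% of the 406 miRNAs detected at D12. The let-7 ratio of D12 to D4 had a median of 1.24, with 7 higher and 2 lower. It ranged from 0.751 for let-7e-5p to 1.71 for miR-98-5p. Of all miRNAs detected on both arrays, 29.4% were higher at D12 than at D4 and 70.6% were lower. All 3 members of miR-29, which targets collagen messengers, were lower at D12 than at D4, with a median of 0.329, and both members of miR-26 were higher, with a median of 1.58. The miR-30 arms, with a median of 1.01, included members on both sides of 1, as did let-7.

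Some markers of other cell types also had higher deposited signals at D12 than at D0. Of all 1881 miRNAs, 329 were detected at D0 and 406 at D12, and the median ratio of D12 to D0 was 1.99. All 3 miRNAs of red blood cells were detected from D4 on and 1 at D0, miR-451a, and their summed signal was 9.40 on D0 and 468, 2524 and 1649 on the later days. Of 3 leukocyte miRNAs 0 were detected at D0 and 2 at D12, with a summed signal of 16.9 at D4 and 76.9 at D12, and miR-150-5p was not detected on any array. The endothelial miR-126a-3p had 13.4 at D4 and 54.0 at D12, and the liver miR-122-5p was detected at D12 with 6.26. None of 3 striated muscle miRNAs was detected. From D4 to D12 the red cell miRNAs were higher by a median of 5.01-fold, where the median over 350 miRNAs was 0.862. The ratios of the 5 miR-30 guide arms were 0.573 to 1.38. The part of such sources in the miR-30 signals was not tested.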

How the data were processed

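RNA of the exosome fraction was measured on 4 single-colour Agilent miRNA arrays, 1 per day. The labels speak of 3 independent experiments and the study's methods of 2 that were mixed. The authors deposited intensity values from Feature Extraction 11.0.1.1 (per the file headers), background-subtracted and not scaled between arrays. The gene signal sums the probes above 3 errors, and is listed as 0.1 otherwise. This rule was checked for every miRNA, with 0 exceptions, and no spot was saturated. The number of arrays limits the precision, and the error given covers variation within an array alone.

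Ratios to D0 used the deposited signals. For a member not detected at D0, the later signal was divided by the sum, over the probes summed that day, of the higher of 3 times the D0 error and the D0 signal. Computations used Python 3.11.15, numpy 2.4.6, pandas 2.3.3, R 4.3.3 and limma 3.58.1. The calculation was run on simulated data, with noise below the D0 probe errors and no difference in brightness between arrays or sides. That run does not show how the calculation behaves on the uneven D0 array. Named were the 5 members, their passenger arms, miRNAs with the same seed, the 5 nearest profiles and, of the comparison lists, the extremes. A few list members outside that rule, such as undetected markers, were named after their values were seen. Members and lists were chosen with earlier results of these data known. Alternatives were 4 scalings, spot size, probe choice, spot medians, right-side spots, normexp with an offset of 50 and thresholds of 1.5 and 3. The percentile and spike-in factors over the same probes of miR-30d-5p, ratios between later days, lower bounds in the family median and a profile without D0 were added after seeing the data. Genome coordinates are those of the RefSeq table.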

Additional observations from a re-analysis of the deposited data

Results flagged for a closer look

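The passenger arm miR-30c-1-3p stood out because it was detected at D12 and D16, outside the guide arms, and not at D0. It was dim, ranking 400 of 406 detected miRNAs at D12 and 374 of 380 at D16. Its signal was 1.88 at D12 and 2.41 at D16, each from 1 of 4 probes, with 2 and 5 of 30 spots well above background. Of the 2 spots at D12, 1 belonged to another probe, whose signal was -0.331. The detecting probe had 0.488 ± 0.385 at D0. With all 4 probes summed the signal was 0.857 ± 0.822 at D0, 2.06 ± 1.12 at D12 and 2.55 ± 0.910 at D16, so that these sums were not clearly above D0.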

How the results depend on the processing

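With 1 array per day no array could be left out and all 4 lay on 1 slide. No paired analysis was possible because each day has 1 array and the result comes from no test. The family median ratio to D0 rests on miR-30d-5p alone, the member detected at D0. At D4, D12 and D16 it was 2.80, 2.58 and 2.63 with the 75th percentile, 4.03, 3.67 and 3.72 with the 90th, 3.56, 3.00 and 2.90 with quantile normalization, 6.38, 4.60 and 3.19 over probes detected on all 4 arrays, and 1.68, 1.43 and 1.36 with normexp. Spike-in scaling gave 6.53 at D4 and 4.94 at D12, and all probes summed over the 5 members, with D0 sums under the lowest detected D0 signal of 1.22 set to it, gave 6.77 at D4. Lower bounds for the other members, added after seeing the data, gave 3.11, 3.13 and 2.35. Relative to the median of all miRNAs at D12, the value was 2.42 over probes detected on all 4 arrays and 1.27 with normexp. The members above 2 at D12 numbered 1 with either percentile and with quantile normalization, 2 with spike-ins and 0 of 5 with normexp, where 11.6% of all miRNAs were. Over probes detected on all 4 arrays it was 1, miR-30d-5p, the only member with a value. The nearest 5 profiles shared 0 miRNAs with those of either other probe choice. The other 26 values moved by less than the error or, for counts, by less than 1.5 times, and none reversed. Some of these could not move. The value over the median of all miRNAs stayed 4.26 with either percentile, with spike-ins and without spot size, because a factor common to an array cancels. The D16 ratio stayed 5.94 without spot size, which was 0.6 at both D0 and D16. The causes were not tested.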

Other observations

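Over D4, D12 and D16, the profile of 350 miRNAs nearest to the mean of the 5 members was that of miR-6967-3p, at a root mean square log2 difference of 0.0137, followed by miR-3569-3p, at 0.0481. This comparison was chosen after seeing the data, and the mean combines members whose signals moved in different directions from D4 to D12.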
